A study of Mus musculus with 58 samples.

Results

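The genes described here are 34 neighbours of the deleted interval on mouse chromosome 7, the region homologous to human 16p11.2. They were taken from a list of neighbouring genes chosen by position. Each of them is taken to be present at 2 copies in every mouse of the series, although copy number was not measured. The RNA-seq data list 54532 genes and the footprint and lysate RNA data list 18411, and all 34 are in both. On the mm10 assembly (GRCm38.p6) 14 of them lie on the Slx1b side of the interval, from Xpo6, 488 kb away, to Sult1a1, whose gene body overlaps that of Slx1b by 1517 bases, and 20 lie on the Septin1 side, from Itgal, 63.2 kb away, to Kat8, 680 kb away. The interval itself runs from Slx1b (chromosome 7, start 126688927) to Septin1 (end 127232985, listed under the older symbol Sept1 in the count tables). The 1517 shared bases of Sult1a1 thus fall within these bounds, so this gene may not be wholly intact. The comparison asks whether the loss of 1 copy of the interval changed the RNA of the genes beside it.

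RNA was measured in striatum of the 16p11.2 and the 3g mouse lines by RNA-seq of 32 libraries, 4 from each sex of each genotype in either line. The 16p11.2 del/+ mice, bought from a repository, carry 1 chromosome that lacks the interval, and the 3g del/+ mice carry CRISPR/Cas9-made premature stop codons on 1 copy each of Taok2, Sez6l2 and Mvp, 3 genes inside the interval, with the DNA of the interval otherwise at 2 copies. All groups share the strain label B6129S, wt libraries are from mice of the same line without the mutation, and the study used littermates of 10 to 14 weeks. Males of both lines were also used for ribosome footprints and for RNA from the same lysate (16p11.2: 3 del/+ and 4 wt animals; 3g: 3 del/+ and 3 wt animals), and both mutations are present in every cell, so the striatal values are averages over all cell types, in which fewer cells of a type and less RNA per cell cannot be told apart.

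A deletion can alter genes beyond its ends in several ways, since enhancers and insulators may be lost or placed next to other promoters and the folding of the chromosome into contact domains may shift. Such changes are called position effects. A gene that has lost a copy usually makes less RNA in proportion, whereas an intact neighbour keeps both copies, so a position effect appears as a change of RNA without a change in copy number. Several of the neighbours are themselves medically important: SH2B1 lies in a separate recurrent deletion of human 16p11.2, CLN3 mutations cause juvenile neuronal ceroid lipofuscinosis, and SETD1A and SRCAP mutations cause neurodevelopmental disorders.

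Total counts were 11711099 to 65529807 in RNA-seq, 15102576 to 19122488 in lysate RNA and 342052 to 678130 in footprint libraries, where all 34 genes together had only 413 to 937 counts. Taok2, the first of the 3 mutated genes, had 82.8 to 95.4 CPM (counts scaled to a common library size, not to gene length) in the 16p11.2 del/+ and 153 to 195 in the wt RNA-seq libraries of that line, with no overlap. In the 3g line Sez6l2 was at 182 to 225 CPM in del/+ and 273 to 339 CPM in wt libraries without overlap. Mvp overlapped over both sexes (4.98 to 7.46 and 7.26 to 9.02 CPM). In females alone Mvp did not overlap, at 5.92 to 6.35 CPM in del/+ and 8.18 to 9.02 CPM in wt libraries. Over both sexes its log2 fold change by edgeR was -0.43 (SE 0.07, adjusted p = 0.102). Taok2 overlapped (151 to 198 and 177 to 181 CPM), with a log2 fold change of -0.03 (SE 0.04). Over both sexes only Sez6l2 thus separated the genotypes of that line. The paper reports lower striatal mRNA of each mutated gene by qPCR in mutant mice of that line. It also reports no change in the nearby genes Hirip3, Tmem219, Asphd1, Cdipt and Prrt2. These lie inside the interval and are not among the flanking genes. Striatal projection neuron markers were high in every library (summed CPM of 7 markers 3349 to 6397 in 16p11.2 RNA-seq), and none was at 0. Xist was almost missing (0.463 CPM) and Ddx3y present (38.6 CPM) in 16p11.2 del/+ female 1, which goes against its sex label. The libraries 16p11.2 del/+ male 4 and 3g wt male 17 stood apart from their own line and are followed below. Over both sexes, the flanking genes called and those at an unadjusted p under 0.05 in edgeR were also counted without these 3 libraries. The other RNA-seq comparisons were refitted without these libraries, together or 1 at a time, among the alternative settings described at the end.

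The promoters of 32 of the 34 genes were found in RefSeq (GRCm38.p6, 250 bases before to 50 after the first listed start). CG dinucleotides, searched as the letters CG, which read the same on both strands, were present in 31 of these 32 windows and in 94.2% of the windows of all 27025 genes. The median window held 12 CG in the flanking genes and 7 in all genes. 4 windows are printed, of genes whose values are given below. Sult1a1 and Slx1b are the neighbours on either side of the first end of the deletion. Tufm and Rnf40 are the intact genes with the lowest p-values in the 16p11.2 line. Capitals mark CG.
Sult1a1 (chr7:126676369-126676668, minus strand): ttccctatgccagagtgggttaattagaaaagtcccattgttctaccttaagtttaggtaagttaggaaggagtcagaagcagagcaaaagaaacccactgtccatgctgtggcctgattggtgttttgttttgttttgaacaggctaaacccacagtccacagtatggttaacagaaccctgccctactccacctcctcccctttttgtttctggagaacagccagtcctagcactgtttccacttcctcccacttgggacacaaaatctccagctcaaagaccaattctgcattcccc
Slx1b (chr7:126695734-126696033, minus strand): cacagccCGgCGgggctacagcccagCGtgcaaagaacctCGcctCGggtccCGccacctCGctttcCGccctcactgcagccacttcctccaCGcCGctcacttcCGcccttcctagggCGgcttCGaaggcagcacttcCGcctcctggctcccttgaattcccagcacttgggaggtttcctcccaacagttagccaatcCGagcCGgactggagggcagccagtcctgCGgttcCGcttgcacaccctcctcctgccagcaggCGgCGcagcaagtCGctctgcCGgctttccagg
Tufm (chr7:126487105-126487404, plus strand): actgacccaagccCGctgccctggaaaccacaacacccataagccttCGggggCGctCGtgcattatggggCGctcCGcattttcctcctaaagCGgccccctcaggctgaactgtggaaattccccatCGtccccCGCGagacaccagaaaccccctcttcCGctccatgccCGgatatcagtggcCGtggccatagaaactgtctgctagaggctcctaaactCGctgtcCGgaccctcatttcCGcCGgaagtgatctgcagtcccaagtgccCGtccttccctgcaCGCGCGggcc
Rnf40 (chr7:127588448-127588747, plus strand): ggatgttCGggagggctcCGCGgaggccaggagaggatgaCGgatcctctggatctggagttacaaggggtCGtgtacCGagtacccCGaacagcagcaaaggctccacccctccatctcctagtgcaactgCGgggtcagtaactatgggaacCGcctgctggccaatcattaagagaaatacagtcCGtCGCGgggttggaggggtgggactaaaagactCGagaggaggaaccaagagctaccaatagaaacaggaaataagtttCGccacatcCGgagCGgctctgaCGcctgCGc
The Sult1a1 window held no CG, the only such window among the flanking genes (5.78% of all genes have none), while Slx1b held 22, Tufm 21 and Rnf40 18. The Sult1a1 window lies inside the gene body as annotated, and not at the end that overlaps Slx1b. Whether these letters bear on expression was not tested.

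In 16p11.2 del/+ mice the genes of the interval fell by about 1 on the log2 scale, and no flanking gene passed the test. Over both sexes (8 del/+ and 8 wt RNA-seq libraries) 22 of the 29 gene identifiers tested in the interval were called lower by edgeR's quasi-likelihood test at a Benjamini-Hochberg adjusted p under 0.05 over all genes, with a median log2 fold change of -1.04, and 2 of the 29 identifiers carry the symbol Aldoa. Of the 33 flanking genes tested, 0 were called, 2 had an unadjusted p under 0.05, while by DESeq2 0 were called with 3 at an unadjusted p under 0.05. Among all 18870 genes tested 0.18% were called and 6.44% had an unadjusted p under 0.05. The median log2 fold change of the flanking genes was -0.03, against 0.00372 for all genes, and 20 of the 33 estimates were below 0 (48.7% of all genes were). The smallest estimate was -0.28 (Nupr1) and the largest 0.63 (Lat).

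The precision was enough to set the flanking genes apart from a halving. The 95% confidence intervals of all 33 lay above a log2 fold change of -1, the value of a halving, and the lowest bound was -0.71. So did that of 1 of the 29 identifiers of the interval, Septin1 (lower bound -0.75). The bound thus speaks of RNA and not of copy number. The intervals of 29 of the 33 lay wholly within -0.5 and 0.5. Without the libraries that stand apart 0 flanking genes were called as well, with 0.174% of all genes called. There 5 of 33 had an unadjusted p under 0.05 (2 with all libraries), against 6.74% of all genes in that fit. These were Tufm, Rnf40, Spns1, Fbrs and Sgf29, with log2 fold changes of -0.20 to -0.12 and adjusted p-values of 0.609 to 0.669. In the same fit Nupr1 had -0.10 (SE 0.16) and Lat 0.12 (SE 0.43), so the extremes given above rested in part on those libraries. A further 28 neighbours outside the list, among them Eif3c and Zfp553, had a median of -0.03 and 0 were called, with 0 at an unadjusted p under 0.05.

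**Figure D1:**
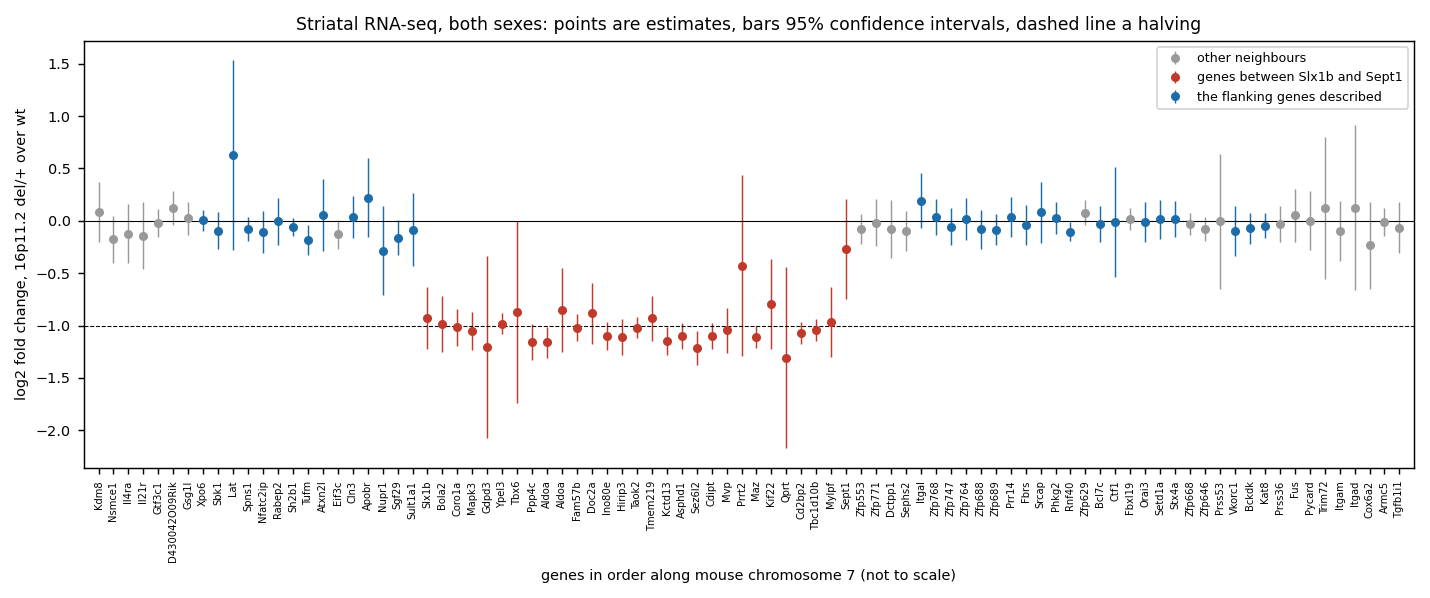
Log2 fold change of 16p11.2 del/+ over wt in striatal RNA-seq of both sexes (y axis), for genes in chromosome order (x axis), with points as edgeR estimates and bars as 95% confidence intervals. Most genes from Slx1b to Mylpf lie near the dashed line of a halving, and the flanking genes on both sides lie around 0.

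At the first end of the deletion a called gene lay next to one that was not called, a difference that was not itself tested. Slx1b, an endonuclease subunit and the first gene of the interval, had a log2 fold change of -0.93 (SE 0.14). Its neighbour Sult1a1, which encodes a phenol sulfotransferase, had -0.08 (SE 0.17, adjusted p = 0.934). In males Sult1a1 was at 12.1, 6.51, 7.04 and 5.82 CPM in wt and 4.97, 6.78, 5.89 and 7.38 CPM in del/+ libraries. In females the wt values were 6.19, 7.11, 4.05 and 5.18 CPM and the del/+ values 5.15, 5.57, 7.79 and 6.52 CPM. The groups overlapped in both sexes, and 1 wt male was higher than all the other libraries of the line. Without that wt male the log2 fold change of Sult1a1 over both sexes was 0.07. In females alone it was 0.16 (SE 0.19), and the interaction of genotype and sex was 0.48 (SE 0.32, adjusted p = 0.835). In the 3g line Sult1a1 had -0.05 (SE 0.14) over both sexes, -0.26 (SE 0.16) in males, 0.17 (SE 0.17) in females and 0.26 (SE 0.26) in lysate RNA, with an interaction of genotype and sex of 0.46 (SE 0.26). The difference between the lines was -0.04 (SE 0.22). Because the gene bodies overlap, reads in the shared 1517 bases could be counted for either gene or for none.

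The next genes outward were Sgf29, a subunit of the SAGA histone acetyltransferase complex, with -0.16 (SE 0.08, adjusted p = 0.768), and Nupr1, a small stress-induced nuclear protein, with -0.28 (SE 0.20, adjusted p = 0.819). Sgf29 had 7.23 ± 0.92 CPM in del/+ and 8.10 ± 0.73 CPM in wt libraries (SD, n = 8 each). Both estimates were negative, but neither passed the test.

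At the other end, Mylpf had -0.97 (SE 0.16), whereas Septin1, a cytoskeletal GTPase gene that names the end of the deletion, had -0.27 (SE 0.23, adjusted p = 0.840). The first flanking gene of the list on that side is Itgal, the alpha chain of the leukocyte integrin LFA-1. It was at 1.25, 1.25, 1.40 and 1.29 CPM in wt males and 1.28, 1.34, 1.61 and 1.72 CPM in del/+ males. In females it was at 1.64, 1.67, 1.13 and 1.17 CPM in wt and 1.80, 1.51, 1.48 and 1.53 CPM in del/+ libraries. The log2 fold change was 0.19 (SE 0.13, adjusted p = 0.816), and the groups overlapped in both sexes. It was 0.20 (SE 0.21) in males and 0.18 (SE 0.20) in females, with an interaction of -0.02 (SE 0.26). In the 3g line it was -0.12 (SE 0.13) over both sexes, -0.12 (SE 0.19) in males and -0.13 (SE 0.20) in females, with an interaction of -0.01 (SE 0.26). Lysate RNA held only 1 to 7 counts of Itgal per library and the gene was not tested there. Lymphocyte markers were near 0 in every library (4 markers summed to 0.0340 to 0.292 CPM in the 16p11.2 line) and microglia markers were at 190 to 217 CPM in del/+ and 181 to 286 CPM in wt libraries.

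The relation of fold change to distance from the interval had opposite signs on the 2 sides. Spearman's rho between the gap and the log2 fold change across genes was 0.24 for the 14 genes on the Slx1b side and -0.33 for the 19 tested genes on the Septin1 side. These are descriptions across genes that share the same 16 libraries.

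The flanking genes with an unadjusted p under 0.05 both had estimates slightly below 0. Tufm, which encodes the mitochondrial translation elongation factor Tu, was at 50.2, 42.5, 42.5 and 52.3 CPM in wt males and 41.1, 43.4, 34 and 40.7 CPM in del/+ males. In females it was at 44.3, 39.3, 45.9 and 41.3 CPM in wt and 36.5, 45.0, 38.6 and 35.3 CPM in del/+ libraries. Most del/+ values were low, but the groups overlapped in both sexes. The log2 fold change was -0.18 (SE 0.07, adjusted p = 0.726).

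Rnf40, an E3 ligase that ubiquitinates histone H2B, was at 72.6, 70.6, 72.6 and 61.9 CPM in wt males and 65.4, 67.4, 59.5 and 63.9 CPM in del/+ males. In females it was at 68.2, 68.7, 66.3 and 71.3 CPM in wt and 64.9, 63.5, 62.1 and 64.4 CPM in del/+ libraries, so that every library labelled del/+ female was below every wt female. Among them is del/+ female 1, whose Xist and Ddx3y go against its sex label. How many of all genes separate these groups in this way was not counted. Over both sexes the log2 fold change was -0.11 (SE 0.04, adjusted p = 0.764). A count of 2 among 33 at an unadjusted p under 0.05 is near the 6.44% of all genes.

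By role, no group of flanking genes had a member past the test. The 13 genes of chromatin and transcription ranged from -0.16 to 0.08 in log2 fold change, and all 13 intervals lay within -0.5 and 0.5. Among them Setd1a, a histone H3 lysine 4 methyltransferase, had 25.3 ± 4.39 CPM in del/+ and 25.2 ± 1.90 CPM in wt libraries (SD, n = 8 each), and Kat8, a histone H4 lysine 16 acetyltransferase, had 18.4 ± 1.10 and 19.0 ± 1.75 CPM. Srcap, a chromatin remodeller that exchanges histone H2A.Z, had 6.80 ± 1.69 and 6.44 ± 1.06 CPM. The zinc finger genes Zfp768, Zfp747, Zfp764, Zfp688 and Zfp689 form a cluster on the Septin1 side and had estimates between -0.08 and 0.04.

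The 5 genes of membrane traffic and nuclear export had a median of 0.00407 and a range of -0.08 to 0.04. Cln3, a lysosomal membrane protein, had 13.1 ± 1.61 CPM in del/+ and 12.9 ± 1.92 CPM in wt libraries, Spns1, a lysosomal transporter, had 61.8 ± 4.02 and 65.5 ± 4.47 CPM, and Stx4a, a plasma membrane SNARE, had 53.9 ± 6.54 and 53.5 ± 7.20 CPM. Xpo6, the nuclear export receptor of actin, had 99.1 ± 6.21 and 99.2 ± 3.13 CPM (SD, n = 8 each). Rabep2, an effector of Rab GTPases on endosomes, had 9.66 ± 1.44 and 9.74 ± 1.33 CPM. These levels differed by less than the spread between libraries.

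All 5 signalling genes had estimates below 0, from -0.11 to -0.01, and 0 were called. Sh2b1, an adaptor of leptin and insulin receptor signalling, had 89.2 ± 3.07 CPM in del/+ and 93.2 ± 3.84 CPM in wt libraries, Sbk1, a serine/threonine kinase, 130 ± 25.4 and 139 ± 12.5 CPM, and Orai3, a calcium channel subunit, 15.0 ± 1.74 and 15.2 ± 2.13 CPM. The 5 tested genes of metabolism and mitochondria ranged from -0.18 to 0.03, with Bckdk, the kinase of the branched-chain ketoacid dehydrogenase, at 42.0 ± 4.85 and 44.2 ± 2.87 CPM and Vkorc1, the target of warfarin, at 3.79 ± 0.45 and 4.05 ± 0.70 CPM. Hsd3b7, a bile acid synthesis enzyme, was listed at 0 in all 32 RNA-seq libraries and was not tested there, although it had 5.08 ± 1.60 CPM in the 16p11.2 wt lysate RNA (SD, n = 4).

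The 3 genes of immune cells, Lat, Itgal and Apobr, were the only group with all estimates above 0 (0.19 to 0.63), at levels of 2 CPM or less. For Lat, a T cell adaptor, the 95% interval ran from -0.28 to 1.53, and the library 16p11.2 del/+ male 4, at 1.16 CPM, was above the other 15 libraries of the line. The same library had 205 CPM of Atxn2l, an RNA-binding protein of stress granules, where the other 15 had 71.8 to 129 CPM.

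Within each sex the result was the same. In 16p11.2 males 0 of 33 flanking genes were called (0.106% of all genes) and 0 had an unadjusted p under 0.05 (5.82% of all genes), with DESeq2 calling 0, also with 0 at that threshold. In 16p11.2 females 0 were called (0.144% of all genes) and 0 had an unadjusted p under 0.05 (4.47% of all genes), again with 0 and 0 by DESeq2. The medians were -0.06 and -0.02, while the interval's genes had -1.07 and -1.04 with 17 and 19 called of 28 tested in each sex. The lowest 95% bound of a flanking gene was -0.59 in females, above a halving for all 33, and -1.29 in males (Ctf1), where 31 of 33 lay above it. 4 libraries a group thus set all but 2 flanking genes of the males, Nupr1 and Ctf1, apart from a halving of RNA. In males 1 of the 28 identifiers of the interval also lay above it, so the bound does not show copy number.

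**Figure D2:**
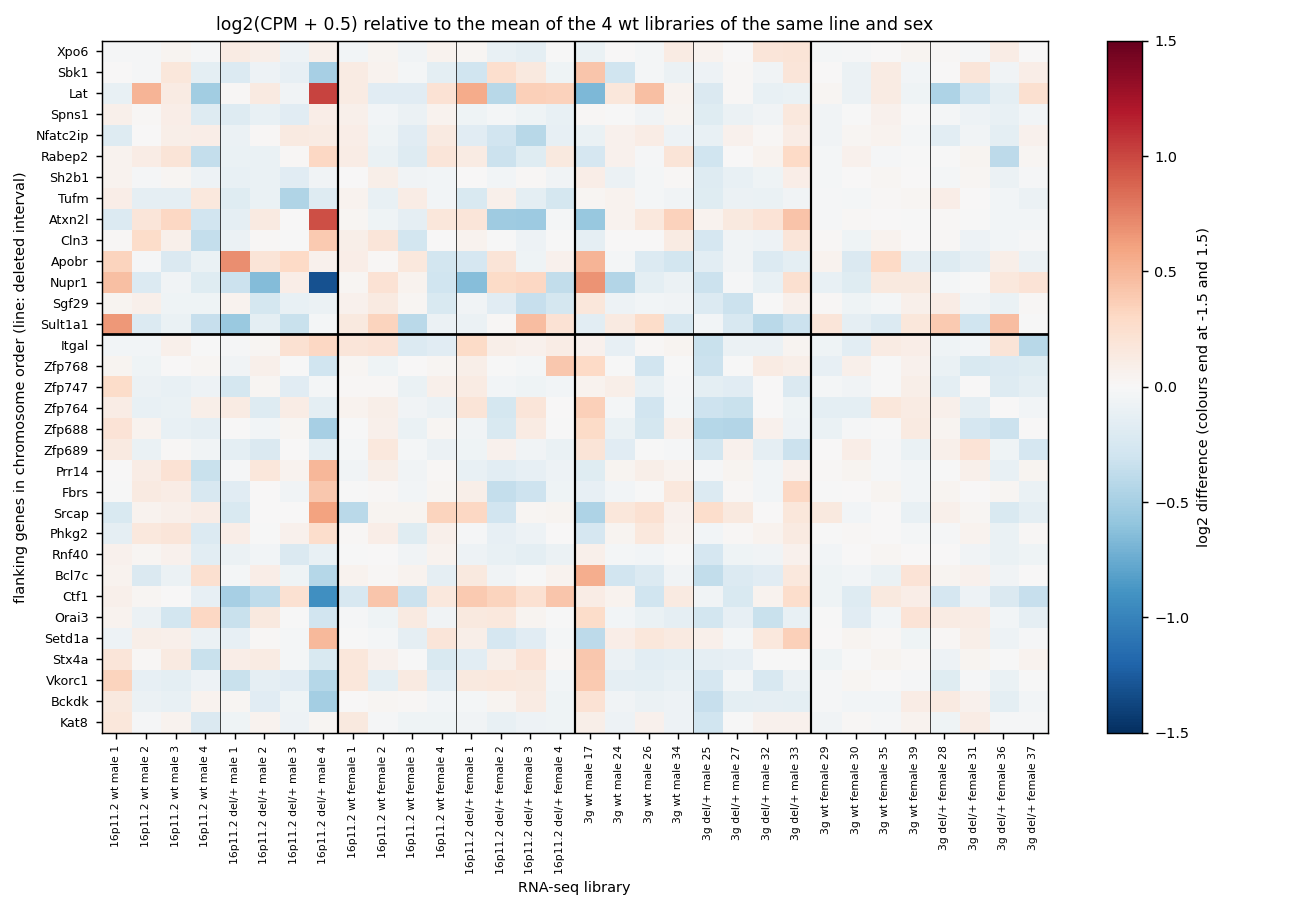
Log2(CPM + 0.5) of the 33 flanking genes with counts (rows, in chromosome order, with the black line at the deleted interval) in each RNA-seq library (columns), relative to the mean of the 4 wt libraries of the same line and sex. The largest departures were in 16p11.2 del/+ male 4 and 3g wt male 17, and Rnf40 was slightly lower than its wt mean in all 8 columns of 16p11.2 del/+.

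The difference between the sexes was tested directly. In the 16p11.2 line 0 flanking genes were called for the interaction of genotype and sex (0% of all genes), 1 had an unadjusted p under 0.05 (4.33% of all genes), while by DESeq2 0 were called, with 1 at that threshold. The gene was Ctf1, which encodes the cytokine cardiotrophin 1. It was at 1.28, 1.22, 1.2 and 1.05 CPM in wt males and 0.694, 0.791, 1.48 and 0.394 CPM in del/+ males. In females it was at 0.650, 1.31, 0.583 and 1.02 CPM in wt and 1.28, 1.22, 1.09 and 1.31 CPM in del/+ libraries. Ctf1 was thus mostly lower in del/+ males and mostly higher in del/+ females, with overlap in both sexes, and the interaction was 0.98 on the log2 scale (SE 0.45, adjusted p = 0.835). Without the libraries that stand apart it was 0.72 (adjusted p = 0.995).

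Lysate RNA of 16p11.2 males, from 3 del/+ and 4 wt animals, gave a further measure of the same genes. There 16 of 26 genes of the interval were called (median -1.06), while 0 of 31 flanking genes were called (0.133% of all genes), 2 had an unadjusted p under 0.05 (4.41% of all genes), while by DESeq2 0 were called with 2 at that threshold. The median of the flanking genes was -0.00207, and the 95% intervals of 29 of the 31 lay above a halving.

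Nupr1 was at 4.94, 5, 5.15 and 3.02 CPM in wt and 3.62, 2.69 and 2.66 CPM in del/+ lysate RNA. The log2 fold change was -0.59 (SE 0.24, adjusted p = 0.990), with 1 wt animal inside the range of the del/+ animals. In RNA-seq of males Nupr1 was at 10.7, 6.62, 7.40 and 6.73 CPM in wt and 6.06, 4.75, 8.30 and 2.82 CPM in del/+ libraries, with overlap (log2 fold change -0.51, SE 0.29, adjusted p = 0.742), and in females it was -0.06 (SE 0.22). Without 16p11.2 del/+ male 4 the male value was -0.30 (SE 0.24), and without wt male 1 it was -0.34 (SE 0.31).

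Sult1a1, next to the interval, had a positive estimate in lysate RNA, at 3.36, 4.49, 5.34 and 2.26 CPM in wt and 6.50, 6.35 and 4.48 CPM in del/+ animals. The log2 fold change was 0.60 (SE 0.27, adjusted p = 0.990), against -0.32 (SE 0.23) in RNA-seq of males. Without the wt male at 12.1 CPM the RNA-seq value was -0.04 (SE 0.18), and neither measure passed the adjusted test. Tufm had 4.52, 4.05, 4.05 and 4.21 CPM in wt and 4.10, 3.41 and 5.25 CPM in del/+ lysate RNA (log2 fold change 0.02, SE 0.20), and Rnf40 had a log2 fold change of 0.04 (SE 0.11), so neither estimate was below 0 there.

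**Figure D3:**
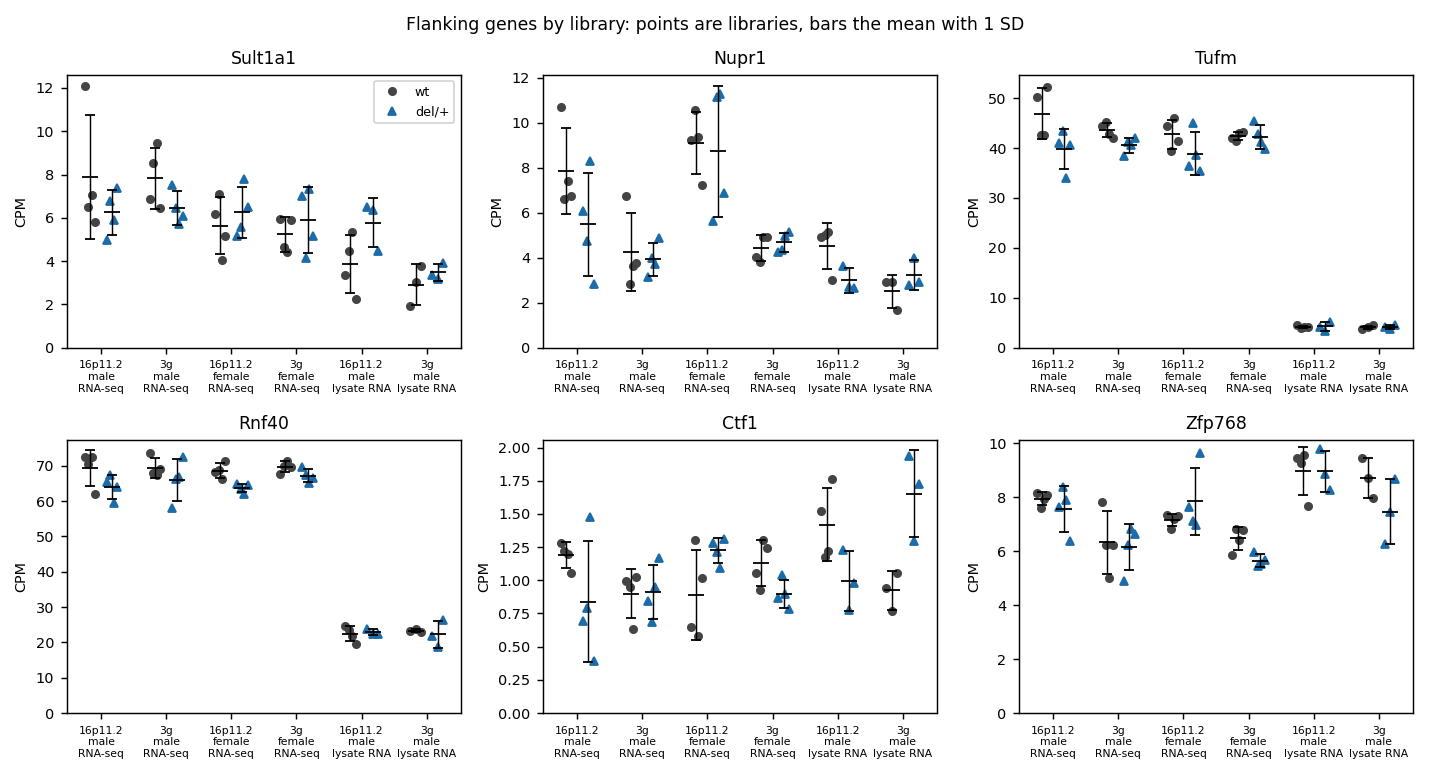
CPM (y axes, from 0) of 6 flanking genes by library for each line, sex and assay (x axes), with circles for wt, triangles for del/+ and bars for the mean with 1 SD. Tufm and Rnf40 in RNA-seq of the 16p11.2 line sit slightly lower in del/+, and the groups of the 6 genes overlap in most pairs.

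In ribosome footprints of the 16p11.2 males only 12 flanking genes had enough counts to be tested, and 0 were called (0.117% of all genes) or had an unadjusted p under 0.05 (6.15% of all genes), with DESeq2 calling 0 and giving 0. Their median log2 fold change was 0.04, from -0.42 (Phkg2, SE 0.34), the catalytic subunit of phosphorylase kinase, to 0.71 (Stx4a, SE 0.35). In the same libraries 13 of 13 genes of the interval were below 0 (median -1.09), 2 of them called. At this depth a halving could be told from no change for 9 of the 12 flanking genes. Translational efficiency, the ratio of footprints to lysate RNA tested as the interaction of assay and genotype, gave 0 called of 33 (0.00664% of all genes) and 0 at an unadjusted p under 0.05 (6.24% of all genes), and DESeq2 called 0, with 1 at that threshold. With the animal as a block, since both libraries of an animal came from 1 lysate, 0 were called.

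8 flanking genes had at least 10 counts in every footprint and lysate RNA library, as did 3358 genes in all, and for these the level of the ratio can be read. The mean log2 ratio of footprint CPM to lysate RNA CPM in the 7 wt animals was highest for Spns1, 1.81 ± 0.48 (SD, n = 7), at the 92.1 percentile of the 3358 genes. It was 1.52 ± 0.34 for Atxn2l and 1.33 ± 0.52 for Setd1a, and lowest for Fbrs, a gene of a Polycomb-related complex, at 0.15 ± 0.18 (42.7 percentile). The median of all 3358 genes was 0.35. In 16p11.2 del/+ animals the ratio was 2.30 for Spns1, 1.74 for Atxn2l and 0.07 for Fbrs, against 2.01, 1.31 and 0.09 in the wt animals of that line.

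The 3g line has 2 copies of the interval, apart from small sequence changes in the 3 mutated genes, and served as the comparison in which the interval is not deleted. 0 of 33 flanking genes were called in males (0% of all genes), in females (0.00526%) and over both sexes (0.00504%), and DESeq2 called 0 in each. At an unadjusted p under 0.05 there were 0 in males (1.44% of all genes), 1 in females (11% of all genes) and 0 over both sexes (5.67% of all genes), with 0, 0 and 1 by DESeq2. Without 3g wt male 17 there were 2 over both sexes (9.83% of all genes), Lat with -0.30 (SE 0.14, adjusted p = 0.499) and Sbk1 with 0.12 (SE 0.05, adjusted p = 0.417), and 0 were called (0.00993% of all genes). With all libraries the median was -0.04 and the range -0.20 to 0.09, and the 95% intervals of 31 of the 33 lay within -0.5 and 0.5. The gene in females was Zfp768, a zinc finger protein, at 5.87, 6.83, 6.43 and 6.78 CPM in wt and 5.98, 5.46, 5.53 and 5.66 CPM in del/+ females. Its log2 fold change was -0.19 (SE 0.07, adjusted p = 0.393), with 1 wt library inside the range of the del/+ libraries. In 16p11.2 females it was 0.14 (SE 0.12).

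The 3g interaction of genotype and sex gave 0 called (0% of all genes) and 0 at an unadjusted p under 0.05 (2.69%), with 0 and 0 by DESeq2. In 3g lysate RNA 0 of 31 were called (0.0209% of all genes), 1 had an unadjusted p under 0.05 (4.92%), while by DESeq2 0 were called, with 0 at that threshold. It was Ctf1, at 0.945, 0.770 and 1.06 CPM in wt and 1.94, 1.29 and 1.72 CPM in del/+ animals, without overlap. The share of all genes without overlap in these groups was not counted. The log2 fold change was 0.83 (SE 0.34, adjusted p = 0.940). In 3g RNA-seq it was -0.15 (SE 0.14) over both sexes.

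3g footprints gave 0 called of 13 flanking genes (0.0132% of all genes) and 0 at an unadjusted p under 0.05 (7.97%), with 0 and 0 by DESeq2. Translational efficiency gave 0 called of 33 (0% of all genes) and 1 at an unadjusted p under 0.05 (7.67%), with 0 and 1 by DESeq2. This was again Ctf1, with -3.33 on the log2 scale (SE 1.15, adjusted p = 0.524). Its footprint counts were 1, 0 and 18 in the wt and 2, 1 and 2 in the del/+ animals, so the value rested on 1 wt animal, without which it was 0.23 (adjusted p = 0.987).

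**Figure D4:**
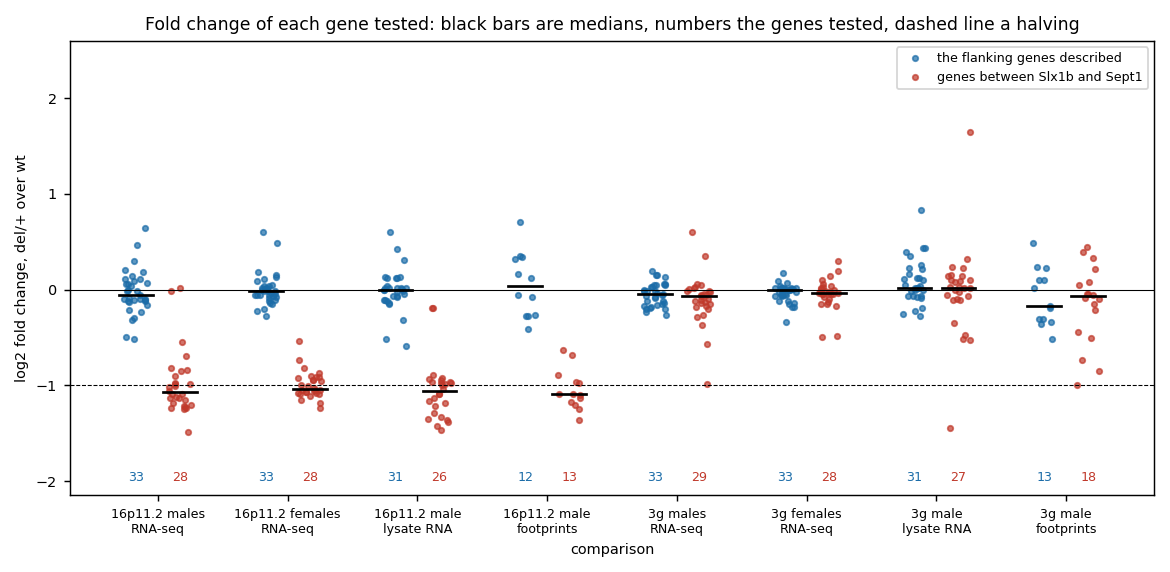
Log2 fold change of del/+ over wt (y axis) for each flanking gene and each gene of the interval, by line, sex and assay (x axis), with black bars as medians and the number of genes tested at the bottom. The medians of the interval's genes lie near a halving in the 4 comparisons of the 16p11.2 line, and the medians of the flanking genes lie between -0.17 and 0.04 throughout.

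The contrast between the lines was tested over all 32 RNA-seq libraries. 0 flanking genes differed between the lines in their response to genotype (0.128% of all genes were called), 0 had an unadjusted p under 0.05 (4.13% of all genes), while by DESeq2 0 were called, with 0 at that threshold. For the genes of the interval 20 of 29 were called. The median difference, 16p11.2 minus 3g, was -0.00175 for the flanking genes and -0.98 for the interval, and the 95% intervals of all 33 flanking genes lay above -1. The largest differences were 0.81 for Lat (SE 0.45), 0.40 for Apobr (SE 0.24), a lipoprotein receptor of macrophages, and 0.31 for Itgal (SE 0.17), followed in the other direction by -0.30 for Nupr1 (SE 0.26). Without the libraries that stand apart these were 0.41 for Lat (SE 0.41), 0.38 for Apobr (SE 0.22), 0.22 for Itgal (SE 0.18) and -0.25 for Nupr1 (SE 0.20).

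Many flanking genes differed in level between the wt mice of the lines. In RNA-seq of wt females (4 libraries a line) the groups did not overlap for 22 of 33 flanking genes, 10 higher in the 16p11.2 and 12 higher in the 3g line, but 55.2% of all genes tested did not overlap either. Atxn2l was at 94.9 to 116 CPM in the 16p11.2 and 201 to 209 CPM in the 3g wt females, Lat at 0.161 to 0.360 and 1.11 to 1.33 CPM, and Nupr1 at 7.12 to 10.5 and 3.82 to 4.82 CPM. In lysate RNA of wt males 4 of 32 did not overlap, all higher in the 16p11.2 line (10.9% of all genes did not overlap). These were Nupr1, Ctf1, Stx4a and Zfp764, and of them Nupr1, Stx4a and Zfp764 were also among the 10 higher in RNA-seq. The summed cortical neuron markers had a median of 771 CPM (686 to 1227) in the 16p11.2 and 146 CPM (32.3 to 842) in the 3g wt RNA-seq libraries, and oligodendrocyte markers 8461 CPM (6456 to 10094) and 4389 CPM (2925 to 8297). In wt lysate RNA the ranges were 174 to 479 and 178 to 406 CPM for cortical neuron markers and 2489 to 3466 and 2100 to 2652 CPM for oligodendrocyte markers. The part of these cells in the differences between the lines was not tested. In these values the line, its genetic background and the preparation of its libraries cannot be told apart.

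The 2 libraries that stand apart did so in the flanking genes as well. The counts that follow were not made over all genes, so they do not set the flanking genes apart from other genes. Of the 22 genes whose wt females did not overlap between the lines, 16p11.2 del/+ male 4 was on the 3g side of the midpoint in 17, while the other 15 libraries of its line were on their own side in 17 to 22. 3g wt male 17 was on the 16p11.2 side in 18, whereas its 15 companions in that line were on their own side in 16 to 22. The genes and the midpoint were taken from the wt females, so the sides of the wt females were largely fixed beforehand. Apart from the wt females and the 2 libraries that stand apart, the fewest genes on their own side were 17 (16p11.2 del/+ male 1) and 16 (3g del/+ male 25). Yet Taok2 in 16p11.2 del/+ male 4 was 88.8 CPM, within the range of the del/+ group. The log2 fold changes of Atxn2l and Lat in 16p11.2 males (0.30, SE 0.24, and 0.65, SE 0.61) include that library, and without it they were -0.01 (SE 0.15) and -0.04 (SE 0.57).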

How the data were processed

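The authors deposited counts per gene for 32 striatal RNA-seq libraries and for 13 footprint and 13 lysate RNA libraries. By the submitters' processing notes RNA-seq was aligned to mm10 and counted with HTSeq (the paper names the bcbio-nextgen pipeline), and the others were aligned to mm39 with Bowtie2. How strand was used in counting is not given in the sources used here. The labels name a ribosomal RNA depletion kit but polyA RNA as the molecule, and their extraction text names human brains although the source is mouse striatum. Nothing was normalized before deposit. All count columns were mapped to samples by their labels, and 0 columns were left unused.

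From the counts, genes were filtered with filterByExpr, scaled with TMM and tested with edgeR 4.0.16 (glmQLFit, glmQLFTest) in R 4.3.3, with Benjamini-Hochberg adjustment over all genes tested and a threshold of 0.05. Sex was a term over both sexes. Standard errors and 95% intervals were derived from the F statistic. CPM were TMM-scaled over all libraries of an assay, those that compare wt mice of the lines over these libraries only. The steps were tested on simulated data. The alternatives were DESeq2 1.42.0, RLE scaling, no filter, each library left out, all 16 libraries of a line in 1 fit, fits without the 3 libraries that stand apart, and replicate or animal blocks. Footprint and lysate RNA libraries of 1 animal are paired by the labels. The labels number the RNA-seq replicates without naming animals, so p-values measure the spread between these libraries.

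Positions are from RefSeq on GRCm38.p6. The members, gene groups and comparison lists were chosen with earlier results of these data known. A gene's own statistics are given in a comparison where its unadjusted p was under 0.05, and in every comparison had its adjusted p passed, and for Sult1a1 and Itgal, the listed genes next to the interval, wherever they were tested, except for translational efficiency, where their footprints were few. Values of the other genes illustrate their groups and were chosen after they were seen. 1 neighbouring gene outside the list is not reported here by name or in a figure.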

Additional observations from a re-analysis of the deposited data

Results flagged for a closer look

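In groups of 4 libraries, a value was singled out where its gap to the nearest other library, over the range of the group, exceeded Dixon's critical value at the 95% level. This was tested for 9 flanking genes in 90 groups, and 6 values passed. Chance alone singles out about 1 in 20 groups.

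Of the 6 values, 3 came from 1 lysate RNA library, that of a 16p11.2 wt male. Nupr1 was at 3.02 CPM there (4.94 to 5.15 CPM in the other 3 wt males), Zfp768 at 7.67 CPM (9.27 to 9.58 CPM) and Itgal at 0.126 CPM (0.294 to 0.322 CPM). Zfp768 was also high in the footprints of another 16p11.2 wt male, at 29.5 CPM against 11.8 to 14.6 CPM, from 12 counts. In RNA-seq, Lat was at 1.16 CPM in 16p11.2 del/+ male 4 (0.290 to 0.396 CPM in the other 3 del/+ males). Itgal was at 1.80 CPM in the library labelled 16p11.2 del/+ female 1, whose Xist and Ddx3y go against its sex label (1.48 to 1.53 CPM in the other 3). The causes were not tested.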

How the results depend on the processing

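The count of flanking genes called was 0 in all 15 comparisons and in all 162 alternative settings, of which 103 left out 1 library or animal and 59 changed the tool, scaling, filter, samples or block. The lowest adjusted p of a flanking gene in any setting was 0.198 (edgeR, Ctf1 in 3g translational efficiency without 1 wt animal). The median log2 fold change of the flanking genes in the 16p11.2 line over both sexes lay between -0.06 and -0.01. Of 139 values of 10 single results, 137 kept their sign. Ctf1 in 3g translational efficiency turned to 0.23 without another wt animal, the one with 18 footprints (range over all settings -3.85 to 0.23), and Sult1a1 in 16p11.2 RNA-seq over both sexes to 0.0666 without wt male 1 (range -0.16 to 0.07). Tufm ranged from -0.22 to -0.15 and Rnf40 from -0.13 to -0.09.

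Same-numbered del/+ and wt libraries of the 16p11.2 line did not deviate together (Pearson's r of deviations from group means -0.26 to 0.11 across genes in 8 pairs), so the replicate number was not taken as a pairing. With the number as a block 0 flanking genes were called and 1, not 2, had an unadjusted p under 0.05 (5.41% of all genes in that fit). With the animal as a block Ctf1 in 3g translational efficiency was -2.74 (edgeR, adjusted p = 0.672), and the block changed no call. Footprint depth limited the test of footprints to 12 and 13 flanking genes, and it made the estimates of translational efficiency imprecise for many.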

Other observations

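Some flanking genes had very different levels in the 2 kinds of RNA library. In 16p11.2 wt males Tufm had a mean of 46.9 CPM in RNA-seq and 4.21 CPM in lysate RNA, whereas Srcap had 6.75 and 188 CPM. The assays used different genome builds and counting, and Hsd3b7 was listed at 0 in RNA-seq only. How far the counting set these levels was not tested.

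Footprints of several flanking genes were missing in part of the 13 libraries. Apobr had 0 footprints in 9 of 13 libraries, Zfp747 in 7, Sult1a1 in 6, and Lat and Zfp764 in 5 each.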
